A study of Mus musculus with 12 samples.

Results

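Costimulatory receptors and their ligands were followed through splenic CD4+ T cells sorted by a GFP reporter of the T-box factor gene Eomes. The set was the 10 genes Icos, Icosl, Cd28, Cd27, Cd40lg, Tnfrsf4, Tnfrsf9, Tnfrsf18, Tnfsf8 and Tnfrsf1b, found by symbol among the 43626 genes of the count matrix, each under 1 identifier. All 10 passed the filter on low counts and were among the 13238 genes tested. In brief, by a test that did not pair libraries by recipient, Cd27 rose and Icos, Icosl and Cd40lg fell in GFP-positive cells of Het donors. By the same test Icosl also fell in GFP-positive cells of KO donors, and no gene of the set passed between genotypes. The Het calls of Cd27 and Cd40lg held in all 21 alternative fits, while the calls of Icos and Icosl did not. A test that paired libraries by recipient called 8 of the 10 genes in Het and 5 in KO cells. Of all genes it called 22.2% in Het and 17.7% in KO cells.

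T cell activation needs a signal from the antigen receptor and costimulation through further receptors, whose ligands are carried mainly by antigen-presenting cells. CD28 and ICOS belong to the immunoglobulin superfamily, bind ligands of the B7 family and signal through phosphoinositide 3-kinase. CD27, OX40, CD137, GITR and TNFR2 belong to the tumour necrosis factor (TNF) receptor superfamily, recruit TRAF adaptors and activate NF-kB, while CD40L and CD30L are TNF-superfamily ligands that activated CD4+ T cells show to partner cells.

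The donors were Het mice with 1 floxed and 1 GFP allele of Eomes and no cre (Eomes flox/GFP), and KO mice of the same alleles with Lck-cre, a transgene that expresses the recombinase under a promoter of the T-lineage gene Lck. The labels do not say which Lck promoter was used or how old the donors were. Naive donor CD4+ T cells (CD45RBhi CD25-) were injected into adult male Rag2-/- mice, which lack T and B cells of their own but keep myeloid and NK cells, and GFP-positive and GFP-negative CD4+ cells were sorted from the spleen after 3 weeks. Each genotype gave a GFP-positive and a GFP-negative group, and each of these 4 groups held 3 libraries; libraries of 1 genotype that share a number came from 1 recipient, so 6 recipients gave 12 libraries. All groups therefore share the GFP allele, the transfer and the host, and no group has wild-type Eomes on both alleles.

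GFP-positive libraries came from 18000 to 117000 sorted cells and held 2116894 to 8608902 counts, against 645000 to 2100000 cells and 11492908 to 18167236 counts for GFP-negative libraries, so the fewer reads lie on the GFP-positive side throughout. In Het GFP-positive replicate 2 and KO GFP-positive replicate 2 the 4 most abundant features took 58.3% and 54.3% of the counts, against 16.3% to 30.9% in the other libraries. Eomes itself averaged 109 ± 17.4 CPM (counts scaled to a library's adjusted total; SD, n = 3) in Het and 41.3 ± 8.44 in KO GFP-positive cells, and 5.01 ± 3.70 and 2.95 ± 1.54 in the GFP-negative cells; gene-level counts do not separate the floxed from the remaining exons. The summed CPM of 6 CD4 T cell markers was lower in the GFP-positive library of 6 of 6 recipients, with log2 differences of -0.88 to -0.31, and that of 9 myeloid markers was higher in 6 of 6, by 1.02 to 2.75. The CD4 T cell markers did not move alike. Cd4, the most abundant of them, had log2 fold changes of -0.76 in Het and -0.63 in KO cells. Those of Cd3e were 0.28 and 0, and those of Trac -0.31 and -0.26. The myeloid sum ran from 41.8 to 1578 CPM without GFP and from 284 to 3682 CPM with GFP. It was highest in Het GFP-positive replicate 3, whose Y-linked transcripts summed to 0 CPM. In Het GFP-positive replicate 2 the myeloid sum was 2088 CPM and the Y-linked sum 32.0 CPM. The recipients were male, and the source of the myeloid RNA was not tested. B cell markers summed to 2.18 to 6.99 CPM without GFP and 5.06 to 25.7 CPM with GFP and were higher in 6 of 6 recipients (0.51 to 1.81 on the log2 scale), led by Cd22 at up to 24.99 CPM, with Pax5 at 0 in every GFP-positive library. Erythroid markers (1.25 to 2.86) and platelet markers (0.45 to 1.65) were also higher in 6 of 6. The platelet sum was led by Itga2b, with Pf4 at most at 0.714 CPM. Dendritic cell markers were higher in 5 of 6 (-2.03 to 1.39). The exception was Het replicate 3, at 28.9 CPM without and 6.715 CPM with GFP. The dendritic cell markers did not move together. In Het cells Zbtb46 ran from 1.36 to 2.04 CPM without and from 3.60 to 4.93 CPM with GFP. Siglech ran from 0.272 to 20.8 and from 0 to 0.667 CPM, and Clec9a from 0.226 to 1.48 and from 0 to 0.584 CPM. In KO GFP-positive libraries Xcr1 and Clec9a were at 0, and Zbtb46 ran from 2.66 to 7.14 CPM. Y-linked transcripts summed to 0 to 32.0 CPM in Het and 41.6 to 221 CPM in KO libraries, so the genotypes also differed in transcripts that depend on sex. Xist, the transcript of X inactivation, ran from 940 to 1819 CPM in Het and from 55.7 to 1151 CPM in KO libraries. Both also differed between the gates of a recipient, by -1.64 to 3.30 (Y-linked sum) and -3.15 to 0.86 (Xist) on the log2 scale. The part of these differences in the results below was not tested, and in bulk RNA fewer cells of a type and less RNA per cell cannot be told apart.

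Within the Het genotype, 4 of the 10 genes were called at a false discovery rate (FDR) under 0.05, 1 higher and 3 lower in GFP-positive cells. The FDR is the Benjamini-Hochberg adjusted p over all tested genes from the quasi-likelihood F-test of edgeR. By the same rule 3.45% of all genes were called, 1.82% higher and 1.63% lower. Of those 457 genes 52.7% were higher, against 37.7% of 536 with an offset for GC content and length. The ranges of the 2 Het groups did not overlap for 7 of the 10 genes, against 27.3% of all genes. The median log2 fold change of the set was -0.44, against -0.02 over all genes. Libraries from the same recipient deviated together, and with the recipient as a block 8 of the 10 genes were called, 3 higher and 5 lower, when 22.2% of all genes were (12.8% higher and 9.41% lower).

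**Figure D1:**
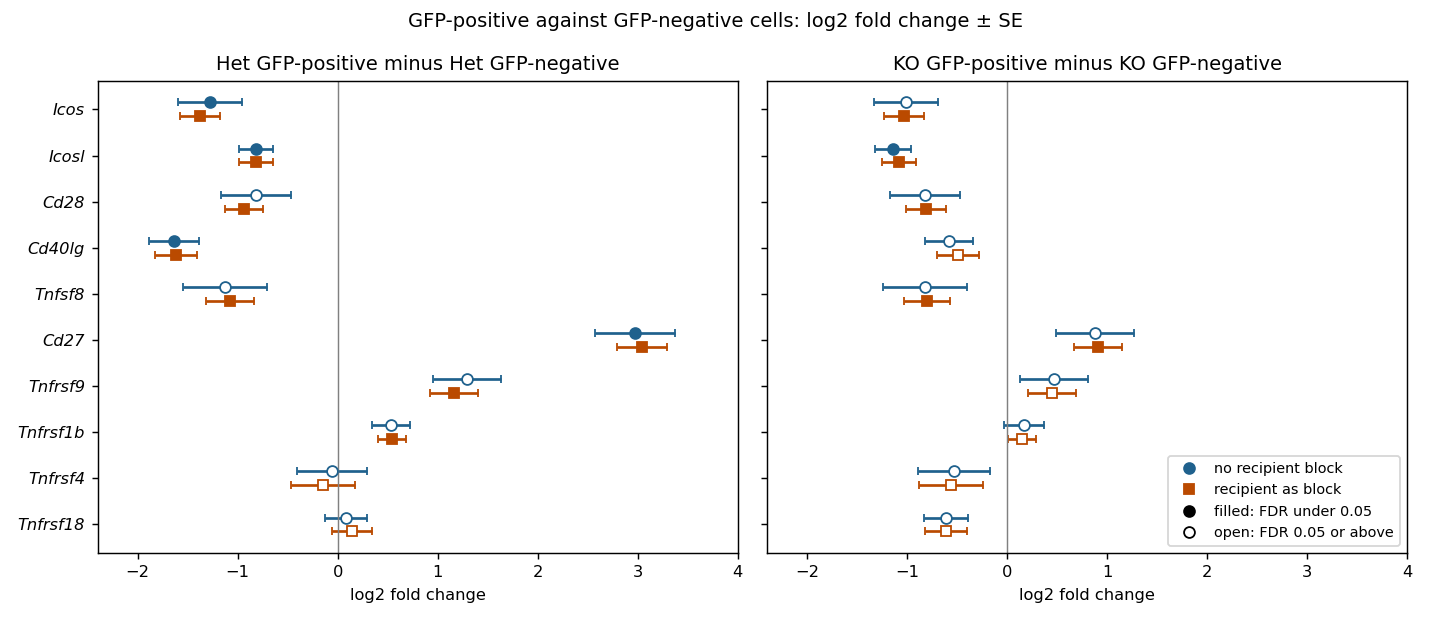
Log2 fold changes with standard errors (bars) of the 10 genes between GFP-positive and GFP-negative cells (horizontal axis), in Het (left) and KO cells (right), without (circles) and with the recipient as a block (squares), filled where the FDR was under 0.05. Without the block Cd27 lies at 2.97 in Het and 0.88 in KO cells, and Icosl at -0.82 and -1.14.

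Cd28 and Icos, the receptors of the CD28 family, lie 205 kb apart on chromosome 1 (mm10; Cd28 chr1:60716800-60773359 and Icos chr1:60977927-61000320, both on the + strand). CD28 is the main costimulatory receptor of naive T cells, and ICOS appears after activation and sustains helper and follicular helper cells. In Het cells Icos measured 185, 188 and 220 CPM in GFP-negative replicates 1, 2 and 3 and 54.7, 62.1 and 125 CPM in the GFP-positive libraries of the same recipients. The groups did not overlap, although GFP-positive replicate 3 lay far above the other two. Icos fell 2.43-fold (log2 fold change -1.28, SE 0.32, FDR = 0.0470, edgeR), and with the recipient block by 1.38 on the log2 scale (FDR = 0.00112). This call sat close to the threshold. It was lost without Het GFP-negative replicate 1, 2 or 3 (FDR 0.0761, 0.140 and 0.0872), Het GFP-positive replicate 1 or 2 (0.120 and 0.144), KO GFP-negative replicate 1, 2 or 3 (0.0664, 0.0509 and 0.0556) or KO GFP-positive replicate 3 (0.0614). It was also lost with the offset for GC content and length (0.0512), in a fit of only the 2 groups (0.0593) and without both libraries dominated by abundant features (0.104).

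In KO cells Icos measured 151, 171 and 115 CPM without GFP and 53.7, 105 and 63.0 CPM with GFP, again without overlap. The difference of -1.01 (SE 0.32) was not called (FDR = 0.209, edgeR) but passed with the block (-1.03, FDR = 0.00919). Cd28 measured 291, 344 and 457 CPM in Het GFP-negative and 119, 163 and 335 CPM in Het GFP-positive libraries, so GFP-positive replicate 3 overlapped the GFP-negative range, while within each recipient the GFP-positive library was lower. Its log2 fold change was -0.82 in both genotypes (SE 0.35 in each; FDR = 0.188 in Het and 0.271 in KO), and the block gave -0.94 (FDR = 0.00684) and -0.81 (FDR = 0.0202). In KO cells Cd28 ran from 138 to 225 CPM without GFP and from 87.6 to 139 CPM with GFP. Both receptors were lower relative to the summed CD4 T cell markers as well, in 6 of 6 recipients, with log2 differences of -1.33 to -0.15 (Icos) and -0.87 to -0.03 (Cd28).

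Icosl, the B7-family ligand of ICOS, is best known from B cells, dendritic cells and epithelium. It is shown here with its promoter because it was the 1 gene of the set called in both genotypes by edgeR without the recipient block. With the block Icos, Cd28, Cd27 and Tnfsf8 were called in both genotypes as well. The gene lies at chr10:78069360-78079525 (+ strand), and the 250 bases before its RefSeq start (GRCm38.p6, chr10:78069118-78069367, + strand) read, 5′ to 3′:
Icosl promoter: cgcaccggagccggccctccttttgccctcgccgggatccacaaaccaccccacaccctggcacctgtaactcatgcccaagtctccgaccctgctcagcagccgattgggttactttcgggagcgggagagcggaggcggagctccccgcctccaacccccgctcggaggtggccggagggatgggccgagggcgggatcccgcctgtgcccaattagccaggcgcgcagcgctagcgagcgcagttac
No capitals are shown, because neither motif searched was found there. The first motif was the T-box core TCACACC, found on either strand in 3.33% of 32851 RefSeq promoter windows of the same length and in 0 of the 8 windows (7 genes) available for the set. The other was the NF-kB consensus, found in 3.90% of all windows and in 1 of the 8.

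Icosl measured 35.1, 35.9 and 39.4 CPM in Het GFP-negative and 22.5, 22.3 and 18.2 CPM in Het GFP-positive libraries. In KO cells it measured 28.9, 39.1 and 27.4 CPM without GFP and 14.4, 14.3 and 14.5 CPM with GFP, the last from 135, 20 and 123 counts. Neither pair of groups overlapped. Icosl fell 1.77-fold in Het (-0.82, SE 0.17, FDR = 0.0273) and 2.20-fold in KO cells (-1.14, SE 0.18, FDR = 0.0384; edgeR in both), and with the block by 0.82 (FDR = 0.00592) and 1.08 (FDR = 0.00344). It was the only gene of the set called in KO cells, where 0.128% of all genes were called (0.121% lower). With the block 5 of the 10 genes were called in KO cells, 1 higher and 4 lower, and 17.7% of all genes (9.60% higher and 8.14% lower). The ranges of the KO groups did not overlap for 6 of the 10 genes, against 20.3% of all genes, and the median log2 fold change of the set was -0.60, against -0.02 over all genes. Relative to the CD4 T cell markers Icosl was lower in 5 of 6 recipients.

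Single libraries moved the Icosl calls. In Het cells the call was lost without Het GFP-negative replicate 1, 2 or 3 (FDR 0.0607, 0.113 and 0.0695) or Het GFP-positive replicate 1, 2 or 3 (0.0527, 0.0604 and 0.0757). In KO cells it was lost without Het GFP-negative replicate 1, 2 or 3 (0.0770, 0.0869 and 0.0683), Het GFP-positive replicate 2 (0.0610), KO GFP-negative replicate 1, 2 or 3 (0.0978, 0.135 and 0.0581) or KO GFP-positive replicate 2 or 3 (0.117 and 0.206). Without both libraries dominated by abundant features, the FDR of Icosl was 0.0676 in Het and 0.174 in KO cells. In a fit of only the 2 groups compared it was 0.0507 in Het and 0.187 in KO cells. Of the 21 alternatives computed, the call held in 13 in Het and 10 in KO cells.

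**Figure D2:**
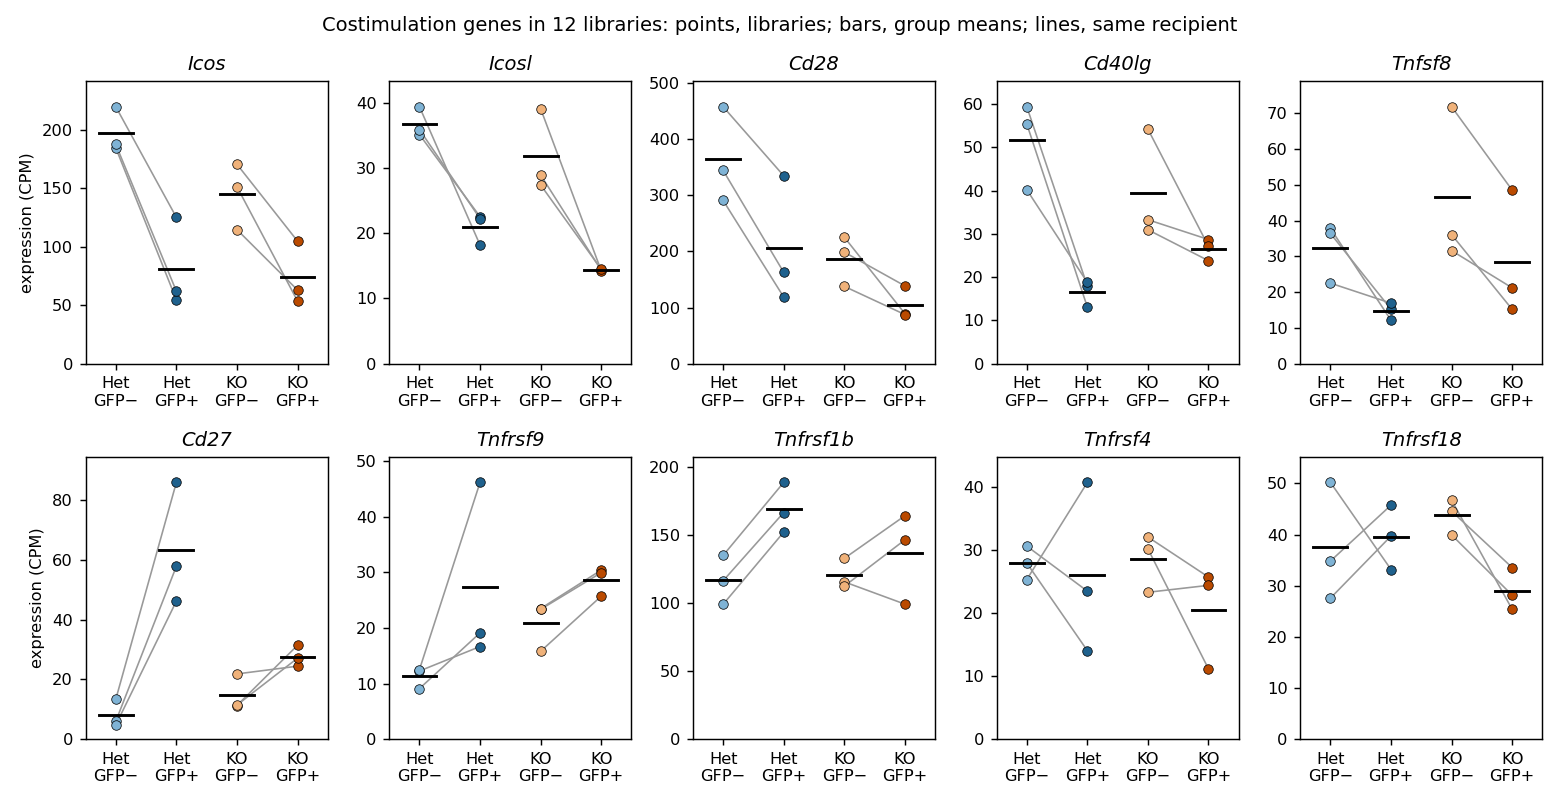
Level of each of the 10 genes in all 12 libraries (CPM, vertical axis) by group, with each point 1 library, black bars at the group means and lines joining libraries of the same recipient. The Cd27 libraries of Het GFP-positive cells sit between 46.1 and 85.8 CPM, above those of the other 3 groups, and the Cd40lg libraries of the same cells sit between 13.1 and 18.8 CPM, below all others.

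Cd40lg and Tnfsf8 encode TNF-superfamily ligands. CD40L engages CD40 on B cells, dendritic cells and macrophages, and CD30L (Tnfsf8) engages CD30. Cd40lg lies on the X chromosome (chrX:57212143-57224042, + strand). In Het cells it measured 55.4, 59.4 and 40.2 CPM without GFP and 13.1, 18.0 and 18.8 CPM with GFP. The lowest GFP-negative library exceeded the highest GFP-positive one. Cd40lg fell 3.12-fold (-1.64, SE 0.25, FDR = 0.00647, edgeR), and the call held in all 21 alternatives computed (FDR 6.76e-07 to 0.0317).

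In KO cells Cd40lg measured 33.3, 54.2 and 30.9 CPM without GFP and 28.7, 27.1 and 23.8 CPM with GFP. The groups did not overlap, but the gap was narrow and the difference of -0.58 (SE 0.24) was not called (FDR = 0.271; 0.119 with the block). Relative to the CD4 T cell markers Cd40lg differed by -1.66 to -0.78 in the 3 Het recipients and by -0.45 to 0.24 in the 3 KO recipients.

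Tnfsf8 (chr4:63831308-63861347, - strand) measured 37.8, 36.4 and 22.5 CPM in Het GFP-negative and 12.1, 15.2 and 16.9 CPM in Het GFP-positive libraries, without overlap (-1.13, SE 0.42, FDR = 0.145, edgeR). In KO cells it measured 36.1, 71.9 and 31.6 CPM without GFP and 15.2, 48.5 and 21.2 CPM with GFP (-0.82, SE 0.42, FDR = 0.316). Replicate 2 was the highest KO library in both gates, so the KO groups overlapped although each recipient's GFP-positive library was lower. The block, which removes such differences between recipients, gave -1.08 (FDR = 0.00904) in Het and -0.80 (FDR = 0.0350) in KO cells.

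Cd27 encodes the receptor of CD70 and is known as a marker that naive and memory T cells keep and terminal effector cells lose. Cd27 shares 129 of its 2328 exon bases with Mir8113 on the same strand (0 counts in all libraries). The effect of that overlap on the Cd27 count was not tested. The gene lies at chr6:125232622-125237010 on the - strand. Its promoter is shown because Cd27 had the largest log2 fold change of the set, and the 250 bases before the RefSeq start (GRCm38.p6, chr6:125237028-125237277, - strand) read, 5′ to 3′:
Cd27 promoter: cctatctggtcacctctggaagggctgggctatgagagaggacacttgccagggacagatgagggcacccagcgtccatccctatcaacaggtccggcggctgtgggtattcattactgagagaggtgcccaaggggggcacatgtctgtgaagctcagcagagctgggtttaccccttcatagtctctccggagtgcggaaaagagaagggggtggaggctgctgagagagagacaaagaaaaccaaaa
Neither motif was found in this window.

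In Het cells Cd27 measured 13.4, 6.06 and 4.82 CPM without GFP and 85.8, 57.8 and 46.1 CPM with GFP, from 85 to 178 and from 148 to 643 counts. Every GFP-positive library exceeded every GFP-negative one, and the order of the recipients was the same in both gates. Cd27 rose 7.83-fold (2.97, SE 0.40, FDR = 0.00332, edgeR; 3.04 and FDR = 5.29e-05 with the block), and the call held in all 21 alternatives computed (FDR 1.12e-10 to 0.0279). In KO cells it measured 21.9, 11.3 and 11.5 CPM without GFP and 24.4, 31.4 and 27.1 CPM with GFP, again without overlap. That difference was 0.88 (SE 0.39, FDR = 0.276, edgeR; 0.91 and FDR = 0.0282 with the block). Relative to the CD4 T cell markers Cd27 was higher in 6 of 6 recipients, by 3.10 to 4.13 in Het and 0.48 to 2.02 in KO.

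Tnfrsf9 encodes CD137, a receptor that appears on recently activated T cells. The gene lies at chr4:150914562-150946102 (+ strand). Of its 2 RefSeq promoter windows, the one at chr4:150927749-150927998 (GRCm38.p6, + strand, inside the gene's deposited span) held the set's only NF-kB consensus matches, 43 and 42 bases before the start and overlapping each other, and is printed with the matched bases in capitals:
Tnfrsf9 promoter: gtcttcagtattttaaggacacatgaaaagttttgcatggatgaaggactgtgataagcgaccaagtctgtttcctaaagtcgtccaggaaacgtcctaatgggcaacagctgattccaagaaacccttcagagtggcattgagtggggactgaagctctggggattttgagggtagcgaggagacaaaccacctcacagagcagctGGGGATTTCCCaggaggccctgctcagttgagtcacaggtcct
Tnfrsf9 measured 12.3, 9.12 and 12.5 CPM in Het GFP-negative and 16.7, 19.1 and 46.1 CPM in Het GFP-positive libraries. The groups did not overlap, and GFP-positive replicate 3 was the highest of all 12. The log2 fold change of 1.29 (SE 0.34) just missed the threshold (FDR = 0.0577, edgeR) and passed with the block (1.16, FDR = 0.00737). In KO cells Tnfrsf9 measured 23.5, 15.8 and 23.3 CPM without GFP and 30.4, 25.7 and 29.9 CPM with GFP, without overlap (0.47, SE 0.34, FDR = 0.445; 0.193 with the block).

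Tnfrsf1b encodes TNFR2, a receptor of TNF found on activated and regulatory T cells, and lies at chr4:145213463-145246870 (- strand). It ran from 99.2 to 135 CPM in Het GFP-negative and from 152 to 189 CPM in Het GFP-positive libraries, without overlap (0.53, SE 0.19, FDR = 0.141, edgeR; 0.54 and FDR = 0.0216 with the block). In KO cells it ran from 113 to 133 and from 99.4 to 164 CPM, with the GFP-positive libraries on both sides of the GFP-negative ones (0.17, SE 0.20, FDR = 0.624; 0.474 with the block). Relative to the CD4 T cell markers Tnfrsf9 and Tnfrsf1b were higher in 6 of 6 recipients each.

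Tnfrsf4 (OX40) and Tnfrsf18 (GITR) are receptors of activated and regulatory T cells whose genes lie 9.55 kb apart on chromosome 4 (chr4:156013843-156016612 and chr4:156026164-156028895, both + strand). Tnfrsf4 ran from 25.3 to 30.6 CPM in Het GFP-negative and from 14.1 to 40.7 CPM in Het GFP-positive libraries, and from 23.3 to 32.0 and 11.2 to 25.7 CPM in the KO gates. All these ranges overlapped (-0.06, SE 0.35, FDR = 0.933 in Het; -0.53, SE 0.36, FDR = 0.432 in KO; edgeR). Tnfrsf18 ran from 27.6 to 50.2 and 33.2 to 45.7 CPM in the Het gates (0.08, SE 0.21, FDR = 0.839), and from 39.9 to 46.7 and 25.4 to 33.6 CPM in the KO gates, which did not overlap (-0.61, SE 0.22, FDR = 0.237; 0.0641 with the block). Tnfrsf18 shares 414 of its 1524 exon bases with the antisense gene Gm16008 (43 counts in all libraries, against 5156). The strand setting of the counting is not given in the sources used here. The count of Tnfrsf18 is therefore uncertain, and the counts of Gm16008 do not show by how much. The 5 markers of regulatory T cells, which also carry both receptors, summed to 94.7 to 112 CPM without and 117 to 232 CPM with GFP in Het cells, and to 60.9 to 95.3 and 45.0 to 83.9 CPM in KO cells. Their members did not move together in Het cells: Ikzf2 ran from 17.0 to 27.5 CPM without and from 96.2 to 203 CPM with GFP, Il2ra from 71.2 to 78.9 and from 16.4 to 26.4 CPM, and Foxp3 from 1.81 to 2.33 and from 0.0973 to 0.781 CPM. Their part in the values of Tnfrsf4 and Tnfrsf18 was not tested.

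Within recipients, Icos, Icosl, Cd28, Cd40lg and Tnfsf8 were lower in the GFP-positive library of 6 of 6 recipients, as were 19.9% of all genes. Cd27 and Tnfrsf9 were higher in 6 of 6, as were 17.7% of all genes. Tnfrsf1b was higher in 5 of 6, and Tnfrsf4 and Tnfrsf18 were higher in 2 and lower in 4. By CPM the 2 receptor genes of the CD28 family and the 3 ligands thus lay on 1 side in every recipient. The 5 TNF receptors were divided between higher and mixed. Relative to the CD4 T cell markers Icos and Cd28 stayed lower in 6 of 6, but Icosl and Tnfsf8 were lower in 5 and Cd40lg in 4. Tnfrsf4 was then higher in 4 of 6 recipients and Tnfrsf18 in 5 of 6.

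**Figure D3:**
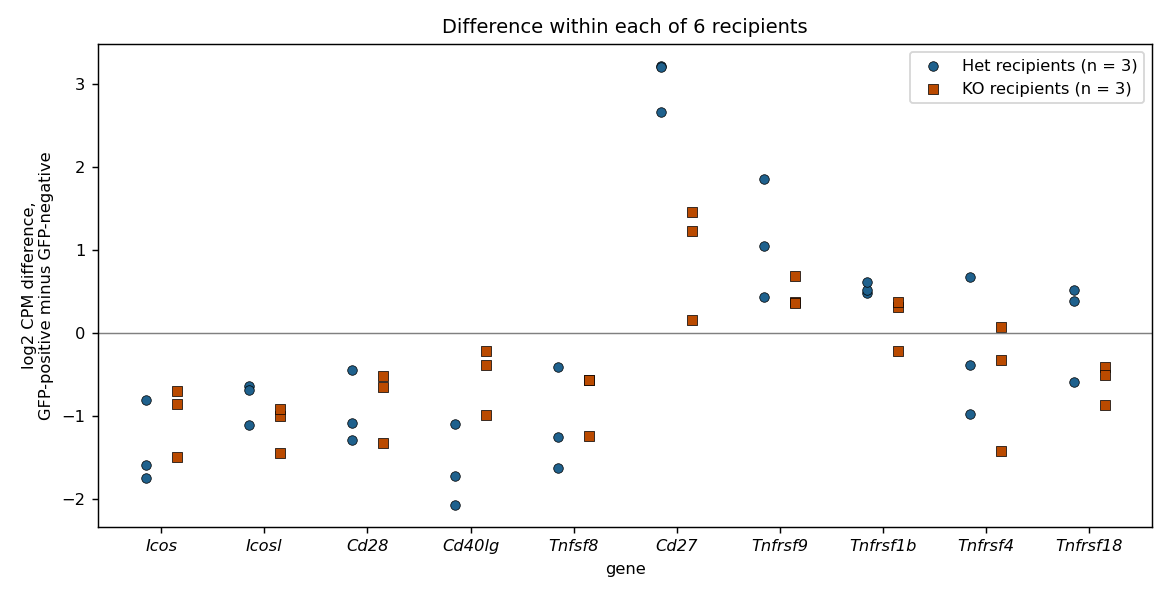
Difference in log2 CPM between the GFP-positive and the GFP-negative library of each recipient (vertical axis) for the 10 genes, with circles for the 3 Het and squares for the 3 KO recipients. For Cd27 the Het recipients lie between 2.66 and 3.22 and the KO recipients between 0.16 and 1.46, and for Cd40lg between -2.07 and -1.09 and between -0.99 and -0.21.

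Between genotypes, the question of which genes depend on Eomes was asked by comparing Het with KO GFP-positive cells. By edgeR 0 of the 10 genes were called, as were 0.106% of all genes; 4 had an unadjusted p under 0.05, as had 824 of the 13238 genes tested, and DESeq2 and the block (0.0906% of all genes) also called 0. The ranges did not overlap for 3 of the 10 genes, 2 higher and 1 lower in Het, against 7.48% of all genes (4.22% higher and 3.26% lower). Cd27 (46.1 to 85.8 CPM in Het, 24.4 to 31.4 in KO) and Icosl (18.2 to 22.5 and 14.3 to 14.5) lay higher in Het, and Cd40lg (13.1 to 18.8 and 23.8 to 28.7) lay lower. Their log2 differences were 1.21 (SE 0.39, FDR = 0.494), 0.54 (SE 0.18, FDR = 0.557) and -0.68 (SE 0.25, FDR = 0.643). Cd40lg is X-linked, the genotypes also differed in Y-linked transcripts, and the part of donor sex was not tested. The fourth gene with an unadjusted p under 0.05 was Cd28, with 0.96 (SE 0.36, FDR = 0.635) and overlapping ranges. The other 6 genes lay between -0.83 (Tnfsf8, SE 0.43) and 0.48 (Tnfrsf18, SE 0.22), with an FDR of at least 0.814 each, and the set's median was 0.38 against 0.01 over all genes.

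The GFP-negative cells of the genotypes were compared in the same way. By edgeR 0 of the 10 genes were called, and 0% of all genes, while 3 of the set (Cd28, Cd27 and Tnfrsf9) had an unadjusted p under 0.05, as had 695 of all genes. DESeq2 called 0 of the 10 and 45 of all genes, and the block 0 of the 10 and 0.0302% of all genes. The ranges did not overlap for 3 of the 10, against 11.3% of all genes (5.37% higher and 5.89% lower in Het). Of these, Cd28 (0.96, SE 0.35, FDR = 0.935) and Icos (0.44, SE 0.31, FDR = 0.996) lay higher in Het, and Tnfrsf9 (-0.88, SE 0.33, FDR = 0.935) lay lower. Cd27 also had a log2 difference of -0.88 (SE 0.38, FDR = 0.935), with overlapping ranges.

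Whether the GFP difference itself differed between genotypes was tested by the interaction of GFP and genotype, in which 0 of the 10 genes were called by edgeR, as were 0.00755% of all genes. The difference was 2.09 (SE 0.55) for Cd27, with an unadjusted p of 0.00227 and an FDR of 1.00, and -1.07 (SE 0.35) for Cd40lg, with an unadjusted p of 0.00926 and the same FDR. A total of 3 genes of the set had an unadjusted p under 0.05, as had 264 of the 13238 genes tested, and DESeq2 called 0 of the set and 11 of all genes. None of the set was called with the block (0.0755% of all genes). With the block the FDR of Cd27 was 0.0547 (2.13, SE 0.34), and with the block and the offset for GC content and length it was 0.0279 (2.07), the only alternative in which Cd27 was called (FDR 0.0279 to 1 over 20 alternatives). For Cd40lg these fits gave 0.367 and 0.0785. Without the block Cd27 and Cd40lg were called in Het and not in KO cells, and the test of that difference passed for neither. In the fits with the block Cd27 was called in KO cells too (FDR = 0.0282, and 0.0198 with the offset).

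Per kilobase of exon (RPKM, which allows genes to be compared), the order of the set differed between the gates. In Het GFP-negative cells the level was highest for Cd28 (59.5 ± 13.9 RPKM; SD, n = 3) and Icos (57.5 ± 5.70), which overlapped each other. Cd40lg (41.3 ± 8.10) overlapped Cd28 but not Icos. Tnfrsf1b (30.6 ± 4.71), Tnfrsf18 (24.6 ± 7.57) and Tnfrsf4 (20.5 ± 1.94) followed, each overlapping the gene before it. Below them, without overlap, came Icosl (13.4 ± 0.826), Tnfsf8 (8.47 ± 2.22) and then Tnfrsf9 (4.16 ± 0.699), which overlapped Cd27 (3.48 ± 2.00). In Het GFP-positive cells Tnfrsf1b had the highest mean (44.3 ± 4.81 RPKM), followed by Cd28 (33.5 ± 18.6) and Cd27 (27.2 ± 8.75), and neighbours overlapped except Icosl (7.62 ± 0.880) and Tnfsf8 (3.88 ± 0.639) at the end.

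In KO GFP-negative cells Icos led (42.4 ± 8.28 RPKM), with Cd40lg (31.6 ± 10.2), Tnfrsf1b (31.5 ± 2.86), Cd28 (30.6 ± 7.33) and Tnfrsf18 (28.7 ± 2.27) close together and overlapping. Tnfrsf4 (20.9 ± 3.38), which overlapped Cd28 but not Tnfrsf18, Tnfsf8 (12.2 ± 5.79) and Icosl (11.5 ± 2.31) came next, and Tnfrsf9 (7.67 ± 1.61) and Cd27 (6.39 ± 2.59) were last, as in the Het GFP-negative cells. KO GFP-positive cells had Tnfrsf1b first (35.8 ± 8.78 RPKM), as Het GFP-positive cells did, Cd27 seventh (11.9 ± 1.51) and Icosl last (5.22 ± 0.0399), with each neighbour overlapping the next.

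**Figure D4:**
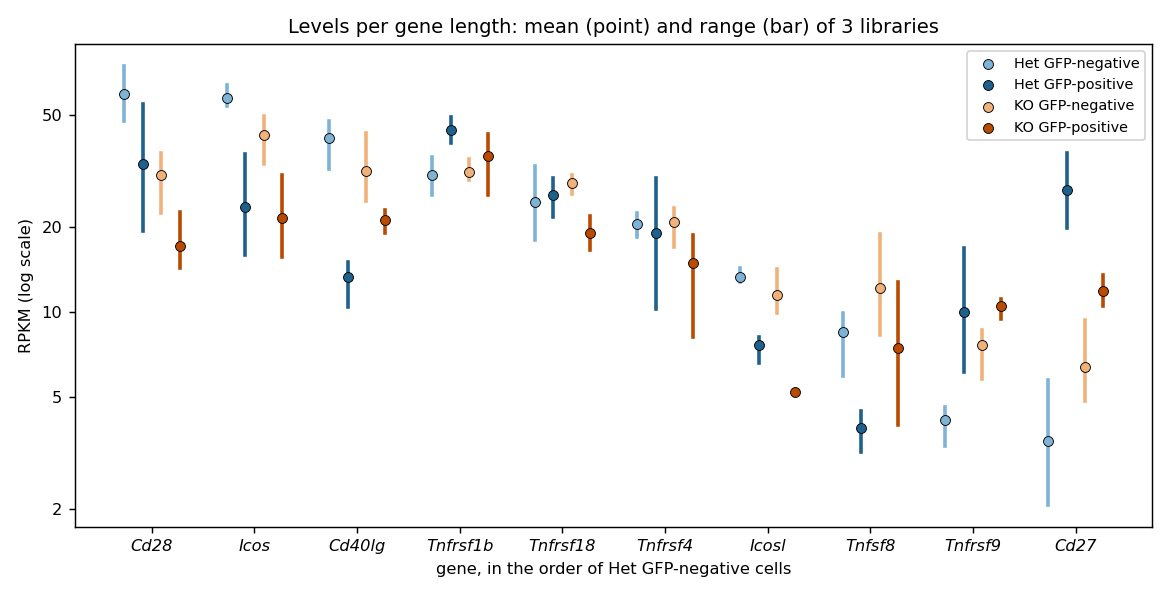
Mean level of the 10 genes per kilobase of exon (RPKM, vertical log axis) in the 4 groups, with points for the mean and bars from the lowest to the highest of 3 libraries. Cd27 moves from the lowest place in Het GFP-negative cells (3.48 RPKM) to the third in Het GFP-positive cells (27.2 RPKM).

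Other genes of costimulation were taken from a list of 56, of which 53 were tested. In Het cells 2 rose and 3 fell in GFP-positive cells (3.45% of all genes were called), and the list's median log2 fold change was 0.07, against -0.02 over all genes. Cd80, a ligand of CD28, averaged 8.90 ± 0.579 CPM without and 27.4 ± 13.2 CPM with GFP (1.62, SE 0.37, FDR = 0.0339, edgeR). Cd244a, the receptor of CD48 known from NK cells and cytotoxic T cells, averaged 3.68 ± 1.61 and 11.1 ± 2.31 CPM (1.58, SE 0.36, FDR = 0.0341). Antigen-presenting cells also make CD80, and the myeloid markers were higher in the GFP-positive library of 6 of 6 recipients. In KO cells Cd80 averaged 12.9 ± 4.81 CPM without and 13.2 ± 3.84 CPM with GFP (0.06, SE 0.37, FDR = 0.940, edgeR). Cd244a averaged 3.67 ± 1.20 and 5.87 ± 0.486 CPM there (0.66, SE 0.37, FDR = 0.350). The part of antigen-presenting cells in these values was not tested. Tnfsf14, the TNF-superfamily ligand LIGHT, fell from 34.1 ± 10.3 to 14.0 ± 2.89 CPM (-1.29, SE 0.28, FDR = 0.0278). Cd5 and Cd6, scavenger-receptor proteins that temper antigen receptor signals, fell by 0.71 (SE 0.17, FDR = 0.0467) and 0.61 (SE 0.15, FDR = 0.0453), beside Cd4 itself, which fell by 0.76 (SE 0.17, FDR = 0.0333), while the difference of Cd3e was 0.28 (SE 0.19, FDR = 0.383).

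None of the 12 adaptors and ubiquitin ligases, 18 kinases and NF-kB genes or 3 RNA-binding proteins that restrain Icos or Tnfrsf4 transcripts was called in Het cells by edgeR. In KO cells 0 of the 53 were called. With the block, 5 rose and 9 fell in Het cells, where 22.2% of all genes were called, and 5 rose and 6 fell in KO cells, where 17.7% were, so the list's share lay near that of all genes in both. Between genotypes and in the interaction 0 were called, with or without the block.

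Each of these 5 calls was lost without some single libraries, with the highest FDR without Het GFP-negative replicate 2 for all 5. Leaving out Het GFP-negative replicate 1, 2 or 3 gave an FDR of 0.0795, 0.140 and 0.0767 for Cd80, and leaving out Het GFP-positive replicate 1 or 2 gave 0.115 and 0.0839. For Cd244a it was 0.101 and 0.169 without Het GFP-negative replicate 1 or 2, 0.102 and 0.0814 without Het GFP-positive replicate 1 or 2, 0.0525 without KO GFP-negative and 0.0510 without KO GFP-positive replicate 3. The call of Tnfsf14 was lost without Het GFP-negative replicate 1 or 2 (0.0675 and 0.152), Het GFP-positive replicate 2 or 3 (0.0688 and 0.0804) or KO GFP-negative replicate 1 (0.0508). The calls of Cd5 and Cd6, the closest to the threshold, were each lost without any 1 of the Het libraries, any 1 of the KO GFP-negative libraries or KO GFP-positive replicate 3, at an FDR of at most 0.231 and 0.179. The log2 fold changes kept their sign in all 21 alternatives, of which the call held in 15 for Cd80, 13 for Cd244a, 14 for Tnfsf14, 9 for Cd5 and 8 for Cd6.

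**Figure D5:**
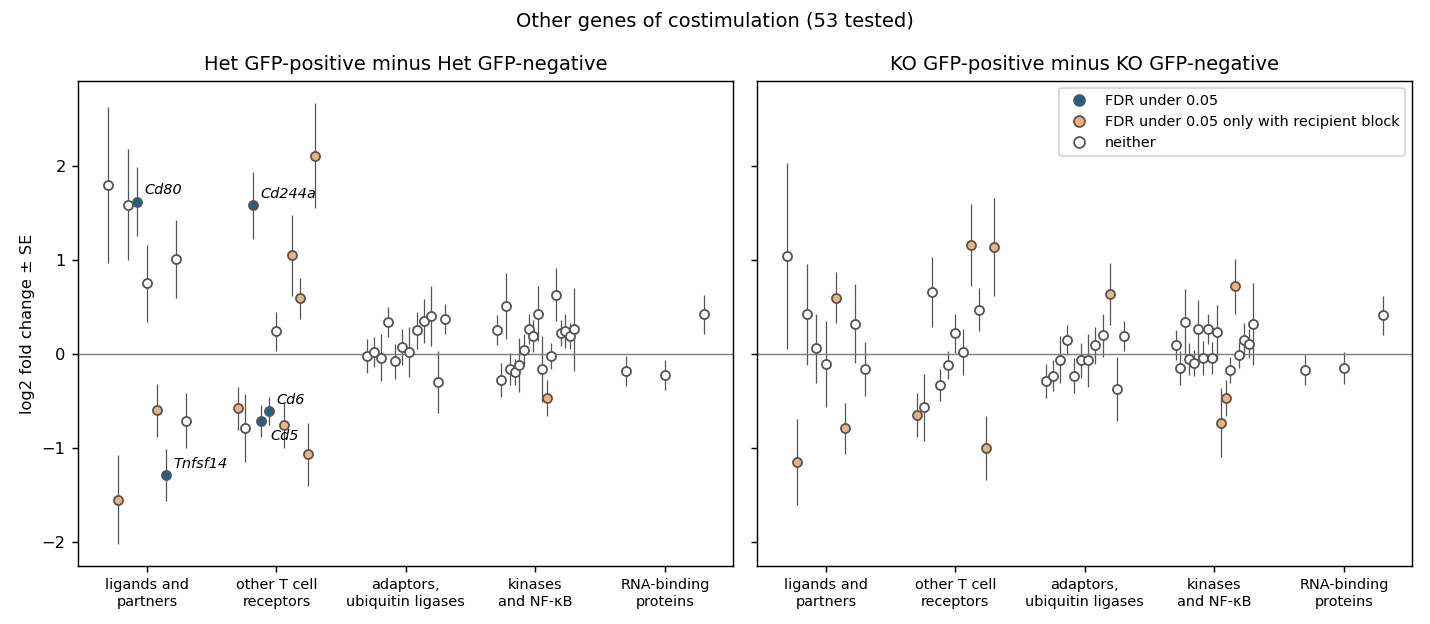
Log2 fold changes with standard errors (bars) of the 53 tested genes of the list by role, in Het (left) and KO cells (right), with dark points for genes called by edgeR and light ones for those called with the recipient block only. The 5 named genes are the calls in Het cells, and no point is dark in KO cells.

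Genes whose levels resembled those of the 4 called genes were sought among 9820 genes whose mean reached 5 CPM, by Pearson's r of log2 CPM over the 12 libraries, which share groups, recipients and depth. Among the most alike were Cpd (r = 0.967) and Slc39a8 (0.954) for Icos, and Cyp2s1 (0.946) for Icosl. For Cd27 they were Kcnip3 (0.951) and Tapbpl (0.942), and for Cd40lg Tcf12 (0.953) and Ly6g5b (0.925). Tapbpl lies 761 bases from Cd27 on the same strand (chr6:125223933-125231860), and the other genes named lie on other chromosomes than their partners.

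The authors' deposited table of Het GFP-positive against GFP-negative cells lists 1406 genes, 6 of them in the set. In the authors' deposited table the log2 fold changes were 2.58 for Cd27 (adjusted p = 1.74e-10, DESeq2), -1.56 for Cd40lg (1.12e-07), -1.20 for Icos (0.00136), -1.06 for Tnfsf8 (0.00314), -0.79 for Icosl (0.00491) and 1.11 for Tnfrsf9 (0.0209). The authors' deposited table for KO cells lists 388 genes, with Icosl (-1.05, adjusted p = 0.00101, DESeq2) and Icos (-0.89, 0.0364) of the set. The authors' deposited table for GFP-positive cells of the genotypes lists 77 genes, none of the set.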

How the data were processed

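Total RNA was depleted of ribosomal RNA and made into stranded libraries, per the labels' protocols. The submitters' processing notes name bcl2fastq 1.8.4, TopHat2 2.0.13, featureCounts 1.5.0-p1, DESeq2 1.6.1 and mm10, without their roles. The authors deposited raw counts per gene and exon lengths, and result tables with mean normalised signal, log2 fold changes, a test score (stat) and p-values, per the file headers.

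From the counts, edgeR 4.0.16 (R 4.3.3) filtered genes (minimum count 10, minimum total 15), scaled by TMM and fitted 1 mean per group over 12 libraries. Genes were called at an FDR of 0.05. CPM are TMM-scaled and RPKM divide them by exon length. Same-numbered libraries come from 1 recipient, per the series' design text, and their deviations correlated at 0.241 to 0.617. The recipient block was a fixed term in edgeR, or a random one in limma 3.58.1 (correlation 0.467) between genotypes. DESeq2 1.42.0, other scaling, no filter, 2-group fits, a GC and length offset (GC known for 99.3% of genes) and leaving out each library were alternatives. No replicates were copies of each other (chi-square over degrees of freedom 37.2 to 324). Whether donors were separate animals is not given, so no p-value measures the spread between donors. The main test treated the 12 libraries as independent, although libraries shared recipients. With the fixed block, p-values measure the spread of the differences within recipients. With 3 against 3 libraries an exact test cannot go below p = 0.1, so none is given.

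The 10 genes and all lists were chosen with earlier results of these data known. All 10 are described, pathway genes are named where edgeR called them, and the 2 most alike genes are named for each called gene, except 1 that is not reported here. Promoters come from RefSeq (GRCm38.p6), for 7 of the 10 genes.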

Additional observations from a re-analysis of the deposited data

How the results depend on the processing

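Cd27 and Cd40lg kept their calls in Het cells in every alternative computed, while those of Icos and Icosl did not. In Het cells the number of genes called was 457, against 1189 with DESeq2, 897 with no filter, 2944 with the recipient block, 3205 with the block and the GC and length offset, and 286 without both libraries dominated by abundant features (an alternative chosen after seeing the data). Leaving out 1 library gave 88 (without Het GFP-negative replicate 2) to 983 (without KO GFP-positive replicate 1). Of the 10 genes 4 were called, against 2 with only the 2 groups, 8 with the block, 7 with the block and offset and 2 without both dominated libraries. With the offset alone 4 were, Tnfrsf9 (FDR = 0.0367, edgeR) in place of Icos. Without 1 library 2 to 5 were. In KO cells 17 genes were called, against 390 with DESeq2, 201 with no filter, 10 with only the 2 groups, 42 with the offset, 2349 with the block, 2765 with the block and offset and 3 without both dominated libraries. Leaving out 1 library gave 5 to 1760, the latter without KO GFP-positive replicate 1. Of the 10 genes 1 was called, against 5 with the block, 5 with the block and offset, 0 with only the 2 groups, 0 without both dominated libraries and 0 to 1 without 1 library. Between GFP-positive cells of the genotypes 14 genes were called, against 95 with DESeq2, 72 with no filter, 2 with only the 2 groups, 4 without both dominated libraries and 3 to 19 without 1 library. Between GFP-negative cells 0 were called, against 45 with DESeq2, 26 with no filter, 7 with only the 2 groups, 4 with the block and 0 to 7 without 1 library. In the interaction 1 was called, against 11 with DESeq2, 6 with no filter, 2 without the most abundant features, 10 with the block, 3 with the offset, 28 with the block and offset (1 of the set, Cd27), 0 without both dominated libraries and 0 to 1 without 1 library. The cause of these changes was not tested.

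Changes of sign were limited to differences that were not called. Tnfrsf4 in Het cells was 0.01 without Het GFP-positive replicate 1, 0.19 without replicate 2 and 0.20 without both dominated libraries, and Tnfrsf18 was -0.08 without Het GFP-negative replicate 3 and -0.05 without Het GFP-positive replicate 1. Over all single libraries left out, Tnfrsf4 ran from -0.51 to 0.19 and Tnfrsf18 from -0.08 to 0.37. Between GFP-positive cells of the genotypes Icos was -0.32 without Het GFP-positive replicate 3 and -0.06 without KO GFP-positive replicate 1, and Tnfrsf4 was -0.04 without Het GFP-positive replicate 3. Tnfrsf9 there was 0.21 without Het GFP-positive replicate 1, 0.10 without replicate 2 and 0.05 without both dominated libraries. Over all single libraries left out, Icos there ran from -0.32 to 0.45, Tnfrsf4 from -0.04 to 0.67 and Tnfrsf9 from -0.71 to 0.21. The recipient block called Cd28, Tnfrsf9, Tnfsf8 and Tnfrsf1b in Het and Icos, Cd28, Cd27 and Tnfsf8 in KO cells in addition to the calls without it. Depth was lowest in KO GFP-positive replicate 2, where 20 to 230 counts of each gene of the set limit what it can show.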
